A study of Homo sapiens and synthetic construct with 52 samples.

Results

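The 10 genes described here encode proteins that build microtubules or start them: the beta-tubulins TUBB, TUBB2A and TUBB4B, the alpha-tubulins TUBA1A, TUBA1B and TUBA1C, the gamma-tubulin TUBG1, and the gamma-tubulin complex proteins TUBGCP2, TUBGCP3 and TUBGCP6. They were found by the gene symbol that opens each guide name in a pooled CRISPR interference (CRISPRi) library, and they are 10 of the 18788 genes the library targets. They have 60 of its 103074 guides, 5 for each of 12 transcription start sites, because the library treats TUBB and TUBB4B as genes with 2 start sites (P1 and P2). The library also has 1895 non-targeting guides. The 10 genes were chosen with earlier results of these data known. These included the decrease of TUBB, the largest of the 1000-fold survival screen. The values of that screen are therefore given as a description, and no test is drawn from them.

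All screens used K562, an established human chronic myeloid leukaemia cell line that carries the BCR-ABL1 fusion, and the cells expressed dCas9-KRAB, a Cas9 without nuclease activity joined to a transcriptional repressor domain. What was sequenced is the guide cassette, so a count measures how many cells carrying a guide were present, and neither the mRNA nor the protein of any tubulin was measured. The same guide set was cloned by an optimised protocol (LGR) or taken as the original pool (legacy). In the LGR survival screens, samples after 7 days of culture (Tf) were set against samples at the start (T0), with 4 Tf and 2 T0 samples at 100-fold coverage (about 100 cells per guide) and 3 Tf and 1 T0 sample at 1000-fold coverage. In the dasatinib screens, at 100-fold coverage, each library was transduced 1 time and then split, so replicates are technical. There were 2 samples treated with 0.75 nM dasatinib (an inhibitor of ABL and SRC family kinases) for 72 h, 2 vehicle samples with 0.01% DMSO and 2 T0 samples per library, and treated and vehicle cells were grown for a further 6 days without drug. Transduced cells were kept under puromycin for longer before T0 of the dasatinib screens and before the titration samples than before T0 of the survival screens. The titration samples were collected without further culture at 10-, 50-, 100- and 200-fold coverage, with 2 per library and coverage. For each library 1 plasmid sample was used, sequenced on a HiSeq for LGR and on a NextSeq for legacy. A further LGR plasmid sample, sequenced on a NextSeq, was not used here because its rows name no guide. For the LGR plasmid sample used, another label names the legacy library, and its title was followed.

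Microtubules are hollow polymers of alpha- and beta-tubulin dimers. They form the mitotic spindle, on which chromosomes are separated, and they are nucleated in cells by the gamma-tubulin ring complex, a ring of gamma-tubulin held by the gamma-tubulin complex proteins. Human cells have several alpha- and beta-tubulin genes with nearly identical products, and tissues differ in which of them are used. TUBB and TUBA1B are used widely in dividing cells, TUBA1A and TUBB2A are best known from neurons, and TUBB4B is common in ciliated tissues.

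CRISPRi guides act near a transcription start site, so the DNA just before the starts is shown for the start sites on which the contrast between paralogues turns. The windows are RefSeq's, on GRCh38.p14, and each holds the 250 bases before a start, printed 5′ to 3′ on the gene's strand. The guide names give PAM coordinates on hg19 and the guide sequences were not used here, so no guide is placed on these windows. Capitals mark the CCAAT box (CCAAT, or ATTGG on the other strand) and the GC box (GGGCGG, or CCGCCC on the other strand), the binding motifs of NF-Y and of SP1.
TUBB, first start, chr6:30720102-30720351, + strand: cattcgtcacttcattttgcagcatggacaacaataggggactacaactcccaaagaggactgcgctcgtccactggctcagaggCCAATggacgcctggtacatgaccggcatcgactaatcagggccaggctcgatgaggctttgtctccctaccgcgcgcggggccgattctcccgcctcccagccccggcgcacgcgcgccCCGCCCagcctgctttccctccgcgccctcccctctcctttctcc
TUBB, second start, chr6:30721388-30721637, + strand: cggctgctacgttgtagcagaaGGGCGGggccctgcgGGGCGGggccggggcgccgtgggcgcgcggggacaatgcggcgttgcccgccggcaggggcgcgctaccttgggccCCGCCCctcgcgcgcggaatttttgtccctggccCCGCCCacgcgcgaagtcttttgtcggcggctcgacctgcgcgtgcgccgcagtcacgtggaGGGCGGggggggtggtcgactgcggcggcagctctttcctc
TUBA1B, chr12:49131396-49131645, - strand: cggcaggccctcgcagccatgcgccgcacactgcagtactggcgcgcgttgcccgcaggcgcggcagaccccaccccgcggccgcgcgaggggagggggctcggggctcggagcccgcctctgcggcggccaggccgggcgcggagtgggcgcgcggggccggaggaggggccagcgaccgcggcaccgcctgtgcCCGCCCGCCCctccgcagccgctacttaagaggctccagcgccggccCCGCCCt
TUBA1A, chr12:49189081-49189330, - strand: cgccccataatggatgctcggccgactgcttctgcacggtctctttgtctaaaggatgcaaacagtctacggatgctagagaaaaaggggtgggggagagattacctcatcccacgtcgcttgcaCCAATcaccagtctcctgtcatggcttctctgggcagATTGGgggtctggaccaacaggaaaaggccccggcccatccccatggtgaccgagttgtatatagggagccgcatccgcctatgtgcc

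All 10 genes had a RefSeq window, 14 windows in all. Of these 7 held a CCAAT box and 9 a GC box, while 32% and 42.6% of all 35116 windows of the same length did. Of the 3 TUBA1C windows 2 overlap and share their CCAAT match, which is counted in both. The first TUBB window held 1 match of each motif, the second TUBB window held 5 GC boxes and no CCAAT box, the TUBA1B window held 3 GC boxes and no CCAAT box, and the TUBA1A window held 2 CCAAT boxes and no GC box. The GC content was 63.6% and 75.6% in the 2 TUBB windows, 81.2% at TUBA1B and 56.4% at TUBA1A, with a median of 58% over all windows. The 2 RefSeq starts of TUBB are 1286 bases apart, and the median P1 and P2 guide coordinates are 1298 bases apart on hg19.

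On hg19 the guides of TUBB P1 spanned 131 bases of chromosome 6 (30688042 to 30688173), those of TUBB P2 201 bases (30689418 to 30689619) and those of TUBB2A 43 bases (3157715 to 3157758). The TUBB4B sites lie on chromosome 9 (P1 140135818 to 140136163, P2 140137584 to 140137749). The alpha-tubulin sites lie on chromosome 12, with TUBA1B at 49524730 to 49525184, TUBA1A at 49582463 to 49582843 and TUBA1C at 49658873 to 49659305. The TUBG1 site lies on chromosome 17 (40761485 to 40762117), TUBGCP2 on 10 (135121900 to 135122422), TUBGCP3 on 13 (113242055 to 113242412) and TUBGCP6 on 22 (50682986 to 50683401). Guides of 1 site share a target and are not independent measurements of the gene. Guides are named below by the gene and the hg19 PAM coordinate.

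Total counts per sample were 105684438 to 111002750 at 1000-fold, 47678549 to 54678272 at 100-fold, and 15739255 to 19844033 in the dasatinib screens. The member guides had 761 to 1729 counts in the LGR plasmid library and 29 to 4401 in the legacy plasmid library. Replicates differed by more than counting noise in every pair (chi-square per degree of freedom 2.75 to 86.7), so all were counted as separate samples, and p-values measure the spread between them. The paper describes replicates of the 100-fold survival screen as technical too. The p-values therefore do not measure a spread between independent experiments.

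In the 100-fold survival screen, 4 of 5 guides against TUBB at its first start site, 3 of 5 against TUBG1 and 3 of 5 against TUBGCP3 were close to lost after 7 days of culture. Some guides against TUBA1B, TUBGCP2 and TUBGCP6 also fell, with counts left in every Tf sample, and no guide against TUBB4B, TUBA1A, TUBA1C, TUBB2A or the second TUBB start site passed the test. By edgeR's quasi-likelihood test with Benjamini-Hochberg adjustment over all guides, 20 of the 60 member guides were lower at Tf than at T0 at an adjusted p of 0.05, where 5.68% of all 102997 guides were lower, and 0 were higher, where 0.0437% were. The 20 guides were 4 of 5 for TUBB P1, 4 for TUBA1B, 4 for TUBG1, 5 for TUBGCP3, 2 for TUBGCP2 and 1 for TUBGCP6. With either T0 sample left out, fewer member guides were called lower, and fewer of all guides were as well. In the 1000-fold screen, whose single T0 sample and known TUBB decrease leave these as counts from which nothing is read, 29 of the 60 guides were lower and 1 was higher, where 9.07% and 1.08% of all guides were.

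Among the beta-tubulins, TUBB 30688145 had 0 counts in all 4 Tf samples, against 359 and 320 in the T0 samples. TUBB 30688173 likewise had 0 counts in all 4 Tf samples, against 240 and 242 at T0. Taken against a floor of 3 counts over the group, these guides were at least 470.1-fold and 333.7-fold lower at Tf, with adjusted p = 1.8e-06 and 1.72e-05 (edgeR). TUBB 30688126 had 0, 0, 0 and 18 counts at Tf, against 326 and 315 at T0, and TUBB 30688137 had 0, 13, 0 and 0, against 191 and 167 (adjusted p = 0.000252 and 0.00292). The last guide of this site did not follow the others. TUBB 30688042 had 167, 302, 95 and 125 counts at Tf, against 257 and 363 at T0, and the groups overlapped (log2 change -0.92, adjusted p = 0.435). At 1000-fold coverage the 4 depleted guides had 0 to 17 counts in the 3 Tf samples, against 418 to 594 at T0, while TUBB 30688042 had 365, 426 and 387, against 695.

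None of the 5 guides of TUBB P2 passed the test. Their log2 enrichment, the log2 ratio of CPM (reads scaled to equal sample totals) at Tf over T0 less the median of the non-targeting guides, averaged between -0.87 and 0.04 at 100-fold, and the lowest adjusted p was 0.42 (edgeR). None of the TUBB4B guides passed either, with a lowest adjusted p of 0.966 at P1 and 0.946 at P2. The TUBB2A guide of lowest adjusted p, TUBB2A 3157719, had 365, 260, 184 and 321 counts at Tf, against 482 and 543 at T0 (log2 change -0.93, adjusted p = 0.0689).

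**Figure D1:**
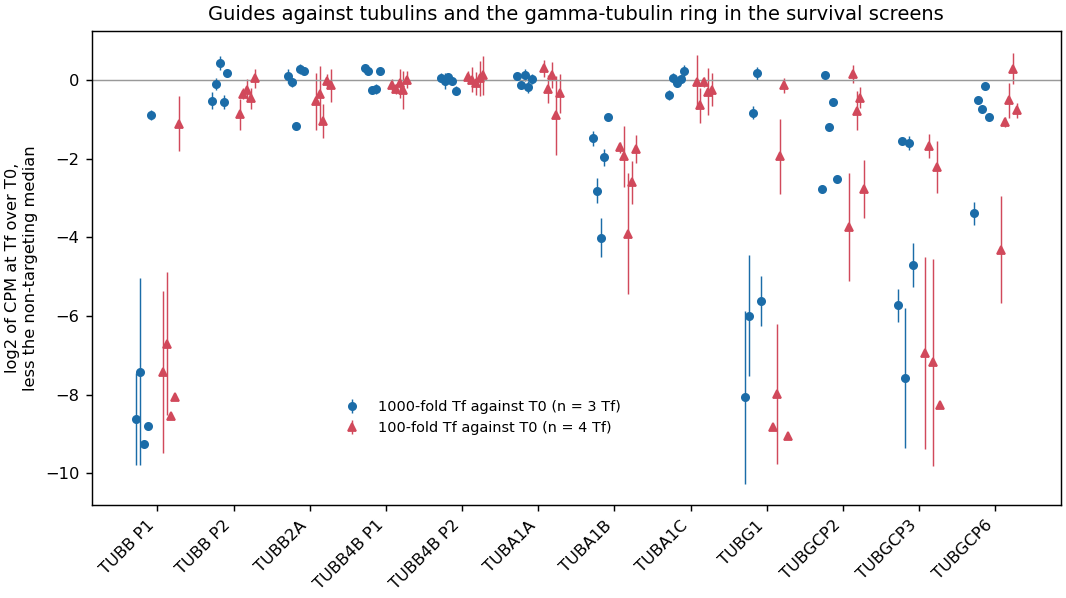
Log2 enrichment of CPM at Tf over T0, less the non-targeting median, for the 5 guides of each start site in the 1000-fold (circles, n = 3) and 100-fold (triangles, n = 4) survival screens. Points are means over Tf samples and bars the SD, with a count of 0 set to 1. Of the 5 guides of TUBB P1, 4 lie below -6 in both screens, while all guides of TUBB P2, TUBB2A, TUBB4B, TUBA1A and TUBA1C lie above -2.

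Among the 3 alpha-tubulins, guides of TUBA1B passed the test and guides of TUBA1A and TUBA1C did not. TUBA1B 49524741 had 26, 59, 6 and 62 counts at Tf, against 312 and 446 at T0 (log2 change -3.39, adjusted p = 0.000727). TUBA1B 49525087 had 94, 122, 49 and 75, against 405 and 489 (-2.47, adjusted p = 0.000259). The other guides held more of their counts. TUBA1B 49524988 had 111 to 134 counts at Tf, against 298 and 430 at T0, TUBA1B 49525184 had 158 to 263, against 545 and 748, and TUBA1B 49524730 had 54 to 175, against 252 and 325 (adjusted p = 0.00881, 0.000291 and 0.0712). No Tf sample reached the level of a T0 sample for any TUBA1B guide. The lowest adjusted p was 0.762 for TUBA1A, a tubulin of neurons in development, and 0.737 for TUBA1C.

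TUBG1 encodes the gamma-tubulin of dividing cells. TUBG1 40761744 and TUBG1 40761764 had 0 counts in all 4 Tf samples, against 382 and 446 and against 422 and 558 in the T0 samples. They were at least 573.2-fold and 678.5-fold lower on the same floor (adjusted p = 4.03e-07 and 1.2e-07, edgeR). TUBG1 40761774 had 11, 0, 0 and 0 counts at Tf, against 305 and 551 at T0 (adjusted p = 9.86e-06). The remaining guides split. TUBG1 40762117 had 110, 267, 53 and 91, against 373 and 384 (log2 change -1.63, adjusted p = 0.0423), and TUBG1 40761485 had 526, 699, 489 and 586, against 514 and 630 (-0.07, adjusted p = 0.989). The 3 near-lost guides lie within the inner part of the site and the other 2 are its outermost guides.

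TUBGCP2 and TUBGCP3 are the pair of complex proteins that bind gamma-tubulin in the small gamma-tubulin complex, and TUBGCP6 is a larger subunit found in the ring. All 5 TUBGCP3 guides passed the test. TUBGCP3 113242412 had 0 counts in the 4 Tf samples, against 304 and 250 at T0, which is at least 383.5-fold lower (adjusted p = 6.86e-06). TUBGCP3 113242055 had 0, 0, 29 and 0, against 197 and 328, and TUBGCP3 113242380 had 36, 0, 0 and 0, against 246 and 409. TUBGCP3 113242229 fell less, with 218, 216, 140 and 206 counts at Tf, against 569 and 542 at T0 (log2 change -1.59, adjusted p = 0.000582), as did TUBGCP3 113242398, with 57, 120, 67 and 163, against 382 and 406 (-2.05, adjusted p = 0.00343). For TUBGCP2 the guides at one end of the site carried the decrease: TUBGCP2 135122315 had 39, 54, 58 and 8 counts at Tf, against 297 and 473 at T0, and TUBGCP2 135122422 had 114, 80, 124 and 43, against 514 and 525 (log2 changes -3.32 and -2.59, adjusted p = 0.000525 and 0.000105). TUBGCP6 50683388 had 11, 15, 4 and 2 counts at Tf, against 116 and 101 at T0, and did not pass the test (-3.83, adjusted p = 0.0568), while TUBGCP6 50683401, with 193 to 246 counts, against 380 and 479, did (-1.002, adjusted p = 0.043).

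Gene-level phenotypes are the mean log2 enrichment of the 3 guides of largest absolute value. At 100-fold they were -8.62 ± 0.62 for TUBG1, -8.01 ± 0.66 for TUBB P1 and -7.46 ± 1.02 for TUBGCP3 (SD, n = 4 Tf samples), ranks 1, 7 and 33 from the lowest of 18788 genes. The SDs of these 3 values exceed the differences between neighbours, so the values do not settle their order. Their size depends on the count put in place of 0 and, for guides at 0, on the count at T0. With counts under 3 set to 3 in each sample, a setting chosen after the data had been seen, they were -7.17, -6.56 and -6.14. Then came TUBA1B (-2.81 ± 0.47), TUBGCP2 (-2.43 ± 0.62) and TUBGCP6 (-2.05 ± 0.44), whose SDs exceed the differences between neighbours. TUBB2A (-0.64 ± 0.34), TUBB P2 (-0.56 ± 0.15), TUBA1C (-0.39 ± 0.34), TUBA1A (-0.31 ± 0.49), TUBB4B P1 (-0.20 ± 0.22) and TUBB4B P2 (0.04 ± 0.23) followed, with a median of -0.11 over all genes scored. The 1000-fold phenotypes were -6.56 ± 0.92 for TUBG1, -6.00 ± 0.47 for TUBGCP3, -2.93 ± 0.16 for TUBA1B, -2.16 ± 0.06 for TUBGCP2 and -1.68 ± 0.10 for TUBGCP6 (SD, n = 3), and -0.22 to 0.10 for TUBB2A, TUBB P2, TUBB4B, TUBA1A and TUBA1C. TUBB P1, whose decrease was known beforehand, was at -8.89 ± 0.41 there, so TUBB P1 and TUBG1 stood in the other order than at 100-fold.

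The gene score multiplies the phenotype, in units of the spread of pseudo-genes made from non-targeting guides, by the -log10 p of an exact two-sided Mann-Whitney test of a gene's guides against the non-targeting guides, and a gene is called at a false discovery rate of 0.05. At 100-fold it called 7 of the 10 genes lower (TUBB, TUBB2A, TUBA1B, TUBG1, TUBGCP2, TUBGCP3 and TUBGCP6), where 10.6% of all genes were called lower, and 0 higher, where 0.0266% were. The TUBB2A call was lost in the other 10 of 11 settings run. At 1000-fold, again as counts from which nothing is read, 6 members were lower and 0 higher, where 11.6% and 0.0745% of genes were. Measured within each Tf sample, the TUBB P1 phenotype was lower than that of TUBB P2 by a mean difference of -7.45 ± 0.71, than that of TUBB2A by -7.36 ± 0.94, and than those of TUBB4B P1 and P2 by -7.80 ± 0.57 and -8.05 ± 0.75 (SD, n = 4). The difference of TUBA1B less TUBA1A was -2.50 ± 0.28 and of TUBA1B less TUBA1C -2.42 ± 0.73, and that of TUBGCP3 less TUBGCP2 was -5.03 ± 0.64. Each difference had the same sign in 4 of 4 samples. With counts under 3 set to 3, TUBB P1 less TUBB P2 was -6.00 ± 0.45, TUBB P1 less TUBB2A -5.91 ± 0.69, TUBB P1 less TUBB4B P1 and P2 -6.35 ± 0.33 and -6.59 ± 0.50, and TUBGCP3 less TUBGCP2 -3.71 ± 0.43, and the 2 TUBA1B differences were the same. Whether a guide also matches a paralogue's start site was not tested.

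The same guides were already scarce before the dasatinib screens began. Against the plasmid library, the median log2 change of the 5 TUBB P1 guides (CPM ratio, less the non-targeting median) was -0.46 and -0.65 in the 100-fold survival T0 samples, -1.84 and -1.56 in the LGR 200-fold titration samples, and -5.11 and -4.41 in the LGR dasatinib screen T0 samples. In the legacy library it was -2.60 and -2.13 in the 200-fold titration samples and -3.11 and -2.83 at T0. TUBB 30688145, for example, had 9.51 CPM in the LGR plasmid library, 2.45 and 2.32 CPM in the 200-fold titration and 0.50 CPM in both T0 samples. In the legacy library it had 6.05 CPM in plasmid, 0.99 and 0.84 CPM in the titration and 0 and 0.06 CPM at T0. TUBB P2 stayed between -0.25 and 0.25 in all these samples of both libraries.

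TUBG1 and TUBGCP3 had smaller early decreases than TUBB P1 in the 200-fold titration samples and were also scarce at T0 of the dasatinib screens. The TUBG1 median was -0.17 and 0.18 in the 100-fold survival T0 samples, -0.70 and -0.36 in the LGR titration, and -3.66 and -3.42 in the LGR dasatinib screen T0 samples, with -1.82 and -1.44 in the legacy titration and -3.63 and -3.46 in the legacy T0 samples. The TUBGCP3 median was -0.24 and 0.04 at survival T0, -0.16 and -0.18 in the LGR titration, and -2.80 and -2.35 in the LGR dasatinib T0 samples, with -0.87 and -0.59 in the legacy titration and -1.58 and -1.67 in the legacy T0 samples. TUBA1B was at -0.62 and -0.87 in LGR and -0.85 and -1.31 in legacy dasatinib T0 samples. Guides at 0.5 or less of their plasmid level numbered 13 and 14 of 60 in the LGR dasatinib T0 samples, where 3.16% and 3.05% of all guides were, and 14 and 16 in the legacy T0 samples, where 3.83% were in both. In the LGR survival T0 samples they numbered 2 at 1000-fold (0.394% of all guides) and 1 and 2 at 100-fold (1.26% and 1.16%). In the 200-fold titration samples they numbered 4 and 6 in LGR (0.775% and 0.752%) and 8 and 8 in legacy (1.2% and 1.16%). At 100-fold coverage of the titration they numbered 8 and 7 in LGR (0.93% and 0.912%) and 7 and 7 in legacy (1.14% and 1.12%), and at 50-fold 6 and 5 in LGR (0.833% and 0.739%) and 10 and 8 in legacy (1.68% and 1.66%). At 10-fold coverage, 19 and 13 member guides in LGR and 12 and 12 in legacy stood beside 14.6% and 13% of all guides in LGR and 20% and 20.2% in legacy, so the legacy share of members did not exceed that of all guides. With 1 plasmid sample used per library, these values have no test. The LGR and legacy plasmid samples were sequenced on different machines, so a difference between the libraries cannot be told apart from one between the machines. The LGR plasmid and LGR cell samples were also sequenced on different machines. Every LGR value over plasmid, in survival T0, titration and dasatinib T0 samples alike, therefore includes any difference between the machines. Of all guides, 86 and 90 had 0 counts in the LGR dasatinib T0 samples, against 2 in the LGR plasmid sample used.

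**Figure D2:**
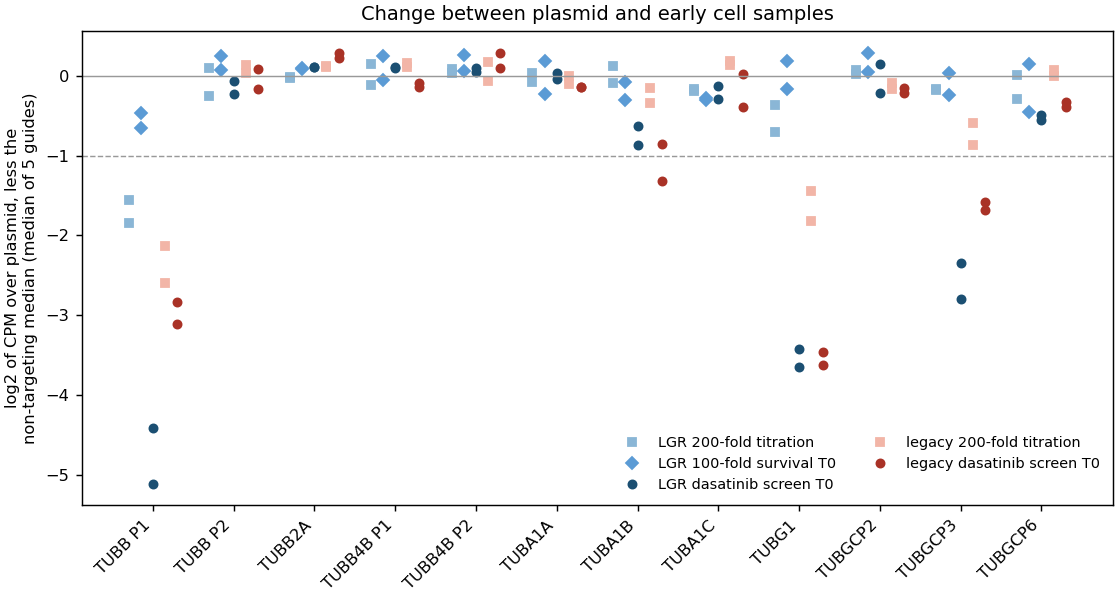
Median log2 change of CPM over the plasmid library, less the non-targeting median, of the 5 guides of each start site, 1 point per sample, in the LGR (blue) and legacy (red) 200-fold titration, the LGR 100-fold survival T0 and both dasatinib screens' T0. The dashed line marks a 2-fold decrease. TUBB P1, TUBG1 and TUBGCP3 lie below it at T0 of both dasatinib screens, down to -5.11, and the TUBB P1 titration samples already lie between -1.56 and -2.60.

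**Figure D3:**
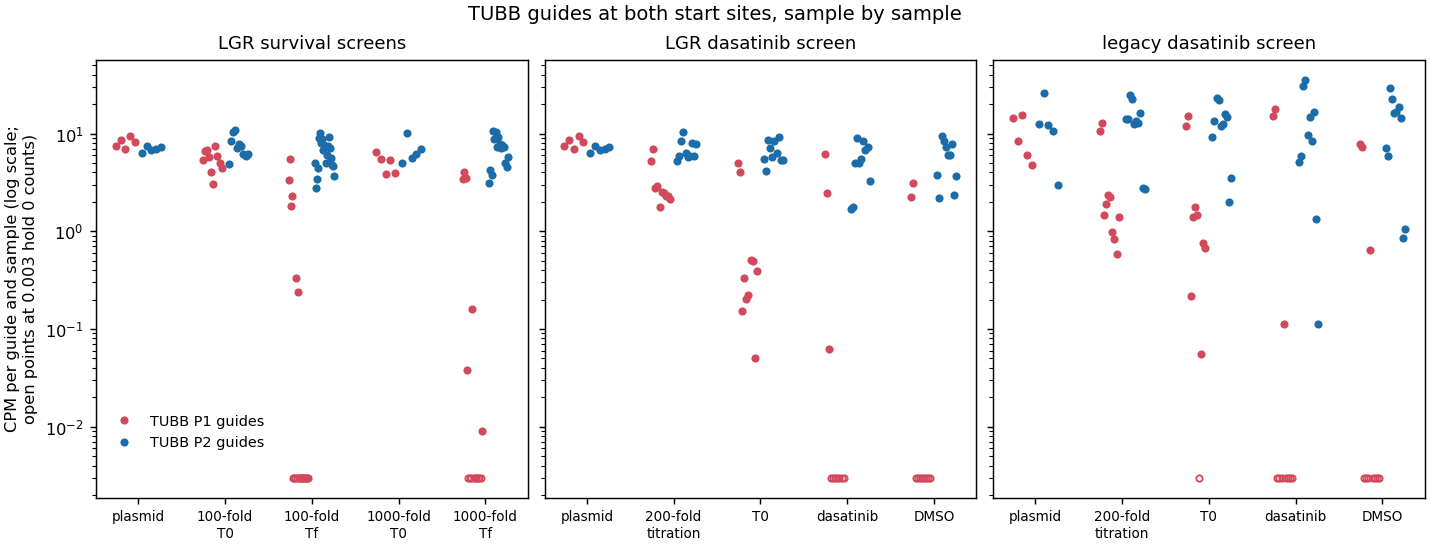
CPM of each TUBB guide in each sample on a log axis, P1 guides in red and P2 guides in blue, in the LGR survival screens, the LGR dasatinib screen and the legacy dasatinib screen. Open points drawn at 0.003 hold 0 counts. Of the 5 P1 guides 4 fall to 0 or near it in Tf, dasatinib and DMSO samples, while TUBB 30688042 did not fall below 1.83 CPM in any sample shown.

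Growth in DMSO over the 9 days after T0 was therefore measured from a different start. In the LGR library 14 of 57 tested member guides were lower in DMSO than at T0 (edgeR, adjusted p of 0.05), where 7.42% of all guides were, and 0 were higher, where 0.535% were. In the legacy library 14 of 57 were lower, where 6.88% were, and 2 were higher, where 0.619% were. With either T0 sample of a library left out, fewer member guides were called lower, and fewer of all guides were as well. The 2 higher calls in legacy were also lost. For TUBB P1 the test had little left to measure. In LGR the 4 depleted guides had 1 to 10 counts in the T0 samples and 0 in both DMSO samples, and 2 of the 5 guides were tested. TUBB 30688145 had 0 and 0 counts in LGR DMSO, against 10 and 9 at T0, at least 5.68-fold lower (adjusted p = 0.291). In the legacy library the 4 guides had 0 to 11 counts in DMSO, against 0 to 33 at T0, and none of them passed. The last guide, TUBB 30688042, had 37 and 54 counts in LGR DMSO, against 98 and 73 at T0 (log2 change -0.76, adjusted p = 0.356), and 137 and 124 in legacy DMSO, against 223 and 268 (-0.85, adjusted p = 0.02).

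TUBA1B, which still had counts at T0, showed the decrease in both libraries. TUBA1B 49524988 had 18 and 13 counts in LGR DMSO, against 115 and 115 at T0 (log2 change -2.73, adjusted p = 7.44e-05), and 37 and 61 in legacy DMSO, against 126 and 151 (-1.44, adjusted p = 0.00568). TUBA1B 49524741 had 1 and 2 counts in LGR DMSO, against 56 and 54, a 32.9-fold decrease with a counting interval of 10.9 to 162 (adjusted p = 0.000233), and 0 and 0 in legacy DMSO, against 18 and 18, at least 11.4-fold lower (adjusted p = 0.0303). In all, 4 of 5 TUBA1B guides passed in LGR and 3 in legacy. The TUBA1A and TUBA1C guides gave 0 lower calls in either library, and TUBA1A 49582806 was higher in legacy DMSO, with 271 and 236 counts, against 153 and 170 (0.71, adjusted p = 0.0491).

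Of the ring genes, TUBGCP3 113242229 passed in both libraries, with 54 and 16 counts in LGR DMSO, against 148 and 143 at T0 (log2 change -1.89, adjusted p = 0.00242), and 6 and 6 in legacy DMSO, against 62 and 82 (-3.50, adjusted p = 0.00019). TUBGCP3 113242398 passed in both as well (adjusted p = 9.86e-05 and 0.000182). TUBG1 passed through the weaker guide alone. TUBG1 40762117 had 40 and 28 counts in LGR DMSO, against 124 and 116, and 8 and 6 in legacy DMSO, against 53 and 47 (adjusted p = 0.0039 and 0.00863). TUBG1 40761485 was higher in legacy DMSO, with 382 and 361 counts, against 250 and 256 (0.61, adjusted p = 0.0272), and was not in LGR, with 203 and 208, against 285 and 219 (-0.14, adjusted p = 0.828). Both higher calls were lost when the scaling factors came from the non-targeting guides alone. TUBGCP6 had 2 lower guides in LGR and 4 in legacy, and TUBGCP2 had 4 in LGR and 1 in legacy.

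Guides that passed in all 3 tested growth comparisons (100-fold Tf, LGR DMSO and legacy DMSO, each against its T0) were TUBA1B 49524741 and 49524988, TUBG1 40762117, TUBGCP2 135122315, and TUBGCP3 113242229 and 113242398. None of them is a guide whose counts were 0 in every 100-fold Tf sample. The 5 member guides with 0 counts in every 100-fold Tf sample had 0 to 49 counts at T0 of the dasatinib screens.

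The change differed between the libraries for 1 member guide, by the edgeR interaction of library and time, where 0.0796% of all guides were lower and 0.0641% higher in LGR than in legacy. TUBGCP2 135121983 had 10 and 31 counts in LGR DMSO, against 204 and 175 at T0, and 274 and 298 in legacy DMSO, against 371 and 332. The log2 change was -3.06 in LGR and -0.24 in legacy, with a difference of -2.86 (adjusted p = 0.00277). The call was lost without any 1 of the T0 samples. In the 100-fold survival screen, with the LGR library, the same guide changed by -0.66 (adjusted p = 0.375). Per gene, TUBGCP2 had a DMSO phenotype of -3.48 ± 0.16 in LGR (5 guides kept) and -0.34 ± 0.11 in legacy (SD, n = 2), where 3 guides were kept and the 2 strongest of the survival screen were not. TUBGCP2 135122422 had 7.11 and 7.01 CPM at LGR T0, against 8.12 CPM in the LGR plasmid library, and 1.30 and 0.28 CPM at legacy T0, against 1.61 CPM in the legacy plasmid library.

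DMSO phenotypes over T0 were -3.87 ± 0.44 in LGR and -2.58 ± 1.09 in legacy for TUBA1B, -2.18 ± 0.53 and -2.82 ± 0.27 for TUBGCP3, -1.26 ± 0.23 and -2.58 ± 1.08 for TUBGCP6, -0.97 ± 0.21 and -1.15 ± 0.16 for TUBG1, -0.83 ± 0.34 and -0.92 ± 0.08 for TUBB P1 and -0.96 ± 0.31 and -0.77 ± 0.03 for TUBB2A (SD, n = 2, LGR before legacy). TUBB P1 rested on 1 guide and TUBG1 and TUBGCP3 on 2 in each library, the others having fewer than 50 counts at T0. The gene score called 5 members lower in LGR (TUBA1B, TUBB2A, TUBGCP2, TUBGCP3 and TUBGCP6), where 10.6% of all genes were, and 4 in legacy (TUBA1B, TUBB2A, TUBGCP3 and TUBGCP6), where 9.19% were, and 0 higher in either, where 0.0533% and 0.048% were. With the mean of all guides it called 7 in LGR, adding TUBB and TUBG1, where 1990 of 18761 genes were lower. In legacy that setting called 5, adding TUBB, where 1799 of 18751 were. With 10 or more counts TUBG1 was added in LGR, and TUBB and TUBGCP2 in legacy, where 1912 and 1991 of 18788 genes were lower. Without DMSO 1 the LGR count was 3, and the TUBB2A call was lost in 4 of 9 settings in LGR and 6 of 9 in legacy. TUBB2A 3157719 carried the TUBB2A call, with 33 and 54 counts in LGR DMSO, against 170 and 152 at T0, and 106 and 83 in legacy DMSO, against 275 and 244 (log2 changes -1.74 and -1.40, adjusted p = 0.00073 and 0.000153). TUBA1B less TUBA1A was -3.63 ± 0.34 in LGR and -2.75 ± 1.23 in legacy (SD, n = 2), lower in both samples of each. The differences of the other paralogues seen in the survival screen were not of that size here, with fewer guides kept. TUBB P1, on TUBB 30688042 alone, less TUBB P2 was -0.17 ± 0.28 in LGR and -0.21 ± 0.10 in legacy, and TUBB P1 less TUBB2A was 0.13 ± 0.03 and -0.15 ± 0.05. TUBGCP3 less TUBGCP2 was 1.30 ± 0.37 in LGR, the opposite sign to the survival screen, and -2.49 ± 0.16 in legacy. The TUBGCP3 guides kept were 113242229 and 113242398, which fell less than the others in the survival screen. These are therefore not the same contrasts as in that screen. TUBB P2 itself had DMSO phenotypes of -0.66 ± 0.06 in LGR and -0.71 ± 0.01 in legacy.

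**Figure D4:**
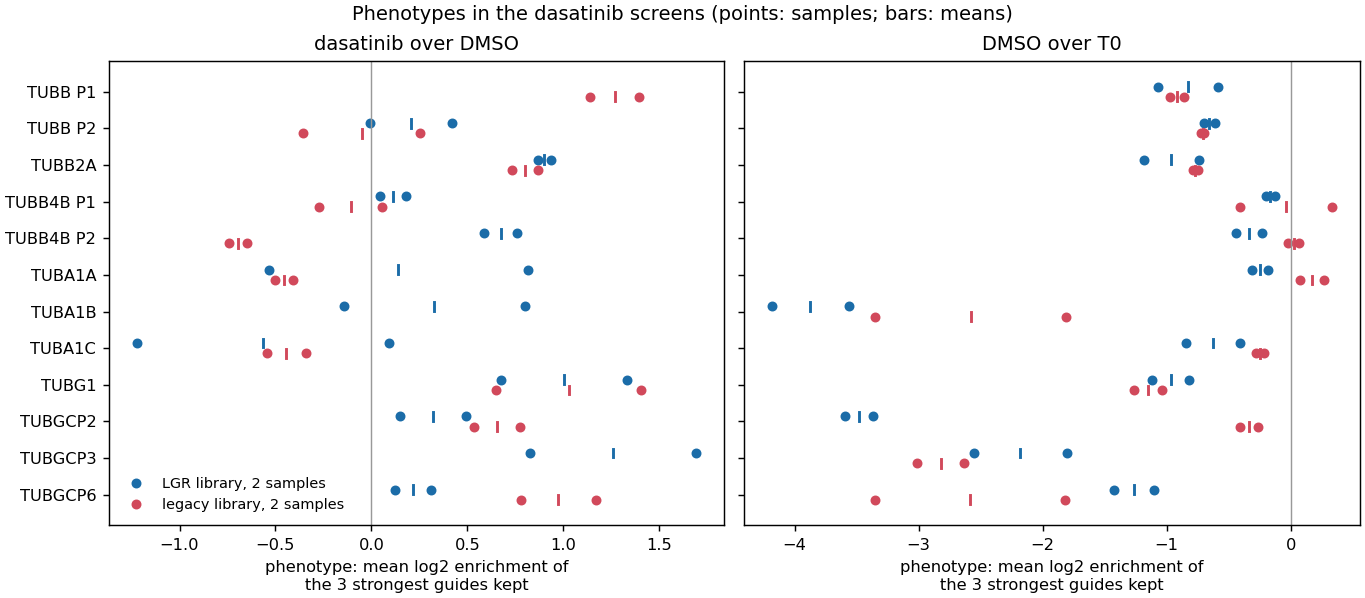
Phenotype of each start site in each sample (points) and its mean (bars) for dasatinib over DMSO (left) and DMSO over T0 (right), in the LGR (blue) and legacy (red) libraries, n = 2 each. A start site with no guide kept has no point. TUBA1B lies between -4.2 and -1.8 in all 4 DMSO samples, TUBGCP2 near -3.5 in LGR and -0.3 in legacy, and the dasatinib values lie between -1.3 and 1.7.

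Dasatinib against DMSO showed no member guide past the test. In LGR 0 of 48 tested guides were called by edgeR, where 0.00393% of all guides were lower and 0.0954% higher. DESeq2 called 0 as well, where 355 of 101701 guides were lower and 1743 higher. In legacy 0 of 50 were called by edgeR, where 0.0349% were lower and 0.572% higher. DESeq2 again called 0, where 369 of 100304 were lower and 2044 higher. By edgeR, 6 member guides in LGR and 10 in legacy had an unadjusted p under 0.05. The share of all guides at that cut was not taken, so these counts have no background. Leaving out 1 dasatinib sample leaves a lone treated sample, which is assumed to vary like the DMSO pair. Member guides were then called in both libraries, and so were many of all guides and many non-targeting guides. Nothing is read from these calls. The DMSO samples are shared with the growth comparison above, so the 2 comparisons are not independent. The gene score called 0 members in either library, where 0.751% of genes were lower and 1.1% higher in LGR and 0.447% and 0.728% in legacy.

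The guides against TUBB P1, TUBG1 and TUBGCP3 that were lost during growth could not be followed under the drug. The 4 depleted TUBB guides had 0 or 1 counts in LGR dasatinib samples, against 0 in DMSO, and 0 or 2 in legacy dasatinib samples, against 0 to 11. TUBG1 40761744 and 40761764 had 0 counts in every dasatinib and DMSO sample of both libraries. Some of the guides that remained are given here, and no difference passed the test. TUBG1 40762117 had 42 and 19 counts in LGR dasatinib samples, against 40 and 28 in DMSO, and 7 and 13 in legacy, against 8 and 6. TUBGCP3 113242229 had 49 and 37 in LGR, against 54 and 16, and 12 and 12 in legacy, against 6 and 6. The guides named next are a selection that was higher under the drug, and include a TUBGCP2 guide. TUBG1 40761485 had 433 and 272 counts in LGR dasatinib samples, against 203 and 208 in DMSO (log2 change 1.004, adjusted p = 0.376), and 806 and 533 in legacy, against 382 and 361 (1.05, adjusted p = 0.193). TUBB 30688042 had 98 and 40 in LGR, against 37 and 54 (0.83, adjusted p = 0.609), and 236 and 313 in legacy, against 137 and 124 (1.25, adjusted p = 0.162). TUBGCP2 135122422 had 39 and 55 in LGR, against 12 and 9 (2.37, adjusted p = 0.286), and 7 and 14 in legacy, against 0 and 0. The dasatinib phenotypes of TUBGCP3 and TUBG1 rested on 1 guide each, for TUBG1 on 40761485 in both libraries. TUBGCP3 was at 1.26 ± 0.61 in LGR and not scored in legacy. TUBG1 was at 1.004 ± 0.46 and 1.03 ± 0.53 (SD, n = 2, LGR before legacy). TUBB2A was at 0.90 ± 0.05 and 0.80 ± 0.09, TUBGCP2 at 0.32 ± 0.24 and 0.65 ± 0.17, and TUBGCP6 at 0.21 ± 0.13 and 0.97 ± 0.28. TUBA1C was at -0.56 ± 0.93 and -0.44 ± 0.15. The interaction of library and treatment (edgeR) called 0 member guides, where 0.00195% of all guides were lower and 0.000977% higher. An unadjusted p under 0.05 was found for 4 member guides, again with no share of all guides beside it.

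The other genes of the pathway were counted from 6 lists of 38 genes, chosen by role with earlier results of these data known. Of all genes, 10.6% were called lower at 100-fold, 10.6% in LGR DMSO and 9.19% in legacy DMSO. Of the other tubulins few were called. Among 6 other beta-tubulins, TUBB8, best known from oocytes, was called lower at 100-fold (-1.60 ± 0.31, SD, n = 4) and in neither DMSO comparison (-1.81 ± 0.58 in LGR and -2.02 ± 0.46 in legacy, n = 2), and 0 of 6 other alpha-tubulins were called in any of these 3. TUBE1, the epsilon-tubulin of centrioles, was called in all 3 (-0.88 ± 0.26 at 100-fold, -1.48 ± 0.24 in LGR and -1.92 ± 0.48 in legacy). The delta-tubulin TUBD1 was called in LGR DMSO (-1.44 ± 0.23). TUBG2, the second human gamma-tubulin, was not called in any, at -0.32 ± 0.12, -0.19 ± 0.43 and 0.18 ± 0.10.

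Among 9 further parts and targeting factors of the ring, 5 were lower at 100-fold, 4 in LGR DMSO and 4 of 8 scored in legacy DMSO. The shares of all genes called lower in these comparisons were 10.6%, 10.6% and 9.19%. NEDD1, which brings the ring to centrosomes and spindle, was at -6.48 ± 0.71 at 100-fold, MZT1, a small protein bound to the complex proteins, at -5.03 ± 1.87, TUBGCP5 at -5.01 ± 1.42, TUBGCP4 at -4.14 ± 0.86 and the centrosomal anchor CDK5RAP2 at -1.48 ± 0.17. The list's median phenotype was -1.48 at 100-fold, -1.54 in LGR DMSO and -1.19 in legacy DMSO, beside -0.11, -0.11 and -0.13 over all genes. Augmin, the 8-subunit complex that recruits the ring to spindle microtubules, had 7 of 8 subunits lower at 100-fold, 8 of 8 in LGR DMSO and 7 of 8 in legacy DMSO, with medians of -4.04, -3.60 and -2.82. HAUS5 was lowest at 100-fold (-7.00 ± 0.90) and in LGR (-5.30 ± 0.13), followed by HAUS4 (-6.11 ± 1.63) and HAUS1 (-5.07 ± 0.02), and HAUS7 was lowest in legacy (-5.11 ± 1.06). HAUS3 and HAUS8 were also called in all 3.

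Tubulin folding cofactors assemble alpha- and beta-tubulin into dimers, and ARL2 is the small GTPase that works with TBCD. Of the 6, 5 were lower at 100-fold (TBCC was not), 6 in LGR DMSO and 5 in legacy DMSO, where 10.6%, 10.6% and 9.19% of all genes were. The medians were -2.36, -4.08 and -2.59. TBCE was at -2.94 ± 0.75, -5.30 ± 0.41 and -4.45 ± 0.78, TBCA at -2.49 ± 0.38, -5.16 ± 0.23 and -4.13 ± 0.75, TBCD at -2.69 ± 0.53, -4.19 ± 0.13 and -2.88 ± 0.32, and TBCB at -2.22 ± 0.29, -3.97 ± 0.59 and -2.31 ± 0.77. Under dasatinib, 2 of 4 scored cofactors were called higher than in DMSO in LGR, where 1.1% of all genes were. These were ARL2 (1.63 ± 0.16) and TBCE (1.48 ± 0.18), each on 2 guides, and both had been called lower in the same DMSO samples against T0. In legacy 0 of 6 were called, with ARL2 at 0.59 ± 0.07 and TBCE at 0.99 ± 0.30 (SD, n = 2), and the difference between libraries was not tested per gene. No gene of the other 5 lists was called under dasatinib in either library.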

How the data were processed

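The authors counted reads for each guide with ScreenProcessing after bcl2fastq and deposited these counts without normalization; guide names carry hg19 coordinates. Reads carry no molecular identifiers, so counting intervals cover counting error only. Every table was of 1 sample, and 0 columns of other samples were present. The 10 genes and the pathway lists were chosen with earlier results of these data known; within lists the text names the 2 called genes of largest absolute phenotype per comparison and genes called in 3 or more comparisons.

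Counts were tested with edgeR 4.0.16 (R 4.3.3; TMM factors, quasi-likelihood test, a guide needed 10 counts in any sample compared, Benjamini-Hochberg adjustment over all guides), with DESeq2 1.42.0 as an alternative. Gene scores were rebuilt in Python 3.11.15 after the study's methods (50 or more counts in every tested sample or in the mean of the T0 or DMSO samples, 0 set to 1, 5 guides per pseudo-gene, 20 divisions of the non-targeting guides). A gene with 2 start sites was called at the one with the lower p. Where all tested counts were 0, a bound used 3 counts over the group. The fits and scores were tested on simulated data. Alternatives were other scaling, other count filters, other guide averages, the replicate block and leaving out each sample.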

Additional observations from a re-analysis of the deposited data

Results flagged for a closer look

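In the 100-fold survival screen, 1 Tf sample stood apart from the other 3 for 4 of 12 phenotypes, measured as the gap to the nearest sample over the range of the 4. For TUBG1 the ratio was 0.943, with Tf 1 at -7.69 and the others at -8.96 to -8.89, and for TUBB P1 it was 0.925, with Tf 4 at -7.02 and the others at -8.39 to -8.29. For TUBA1A it was 0.914, with Tf 3 at -1.04 and the others at -0.11 to -0.02, and for TUBB P2 it was 0.854, with Tf 1 at -0.33 and the others at -0.66 to -0.61. Of 60 guides, 6 had such a sample by CPM. The ratio was 1.0 for TUBB 30688126 (18 counts in Tf 4, 0 in the others), TUBB 30688137 (13 counts in Tf 2), TUBG1 40761774 (11 counts in Tf 1), TUBGCP3 113242055 (29 counts in Tf 3) and TUBGCP3 113242380 (36 counts in Tf 1), and 0.876 for TUBB4B 140135818. For 4 values of a normal spread, chance gives such a gap in about 1 of 20 groups. Where 3 samples hold 0 counts the ratio is 1.0 by construction, so that rate does not apply to those guides. The TUBG1 and TUBB P1 phenotypes include TUBG1 40761774 and TUBB 30688126, so their flags are not separate from those of these guides.

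TUBGCP2 135121983 changed differently in the 2 libraries from T0 to DMSO, with a tested difference (LGR less legacy) of -2.86. For TUBA1A both DMSO samples lay below T0 in LGR (mean phenotype -0.25) and above it in legacy (0.17). For TUBB4B P2 both dasatinib samples lay above DMSO in LGR (0.67) and below it in legacy (-0.69). The last 2 differences were not tested.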

How the results depend on the processing

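No called value changed sign under the alternatives run. Leaving out 1 sample at a time gave 11 to 21 called member guides at 100-fold, 28 to 30 at 1000-fold, 5 to 19 in LGR DMSO, 4 to 17 in legacy DMSO, 0 to 9 in LGR dasatinib, 0 to 11 in legacy dasatinib, 0 to 1 for the library difference in DMSO and 0 for that in dasatinib. The 100-fold and DMSO counts were lowest without a T0 sample, and the counts of all guides called lower were lowest there as well. Under dasatinib, member guides were called only without a treated sample, where many non-targeting guides were called too, as given above. Called genes were 6 in both survival screens, 3 to 5 in LGR DMSO (3 without DMSO 1), 3 in legacy DMSO and 0 under dasatinib, and guides at 0.5 or less of plasmid were 13 to 14 and 14 to 16. With Benjamini-Hochberg adjusted Mann-Whitney p the score called 4 members lower at 100-fold, where 1358 of 18788 genes were. With 10 or more counts it called 1 member higher in LGR dasatinib, TUBGCP2, where 323 of 18755 genes were. A replicate block was also used at 100-fold (T0 1 grouped with Tf 1 and 2 and T0 2 with Tf 3 and 4, after the study). It gave 19 member guides lower, where 5761 of 102997 guides were. With a block in the dasatinib comparisons (same numbers paired), 0 member guides were called. Of all guides there, 189 were lower and 786 higher in LGR, and 397 and 2041 in legacy. Samples so paired did not deviate together (r of -0.00134 to 0.00346), so these groupings do not pair the samples. Counts under the other 118 alternatives stayed within 1.5 times the main count. Guides with few counts at T0 of the dasatinib screens could not be followed further there. Guide sequences were not used, so matches to paralogues and repression itself were not examined.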

Other observations

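TUBGCP6 50683388 had 59 and 60 counts (3.18 and 3.36 CPM) in the legacy T0 samples, against 29 counts (0.17 CPM) in the legacy plasmid library, so its legacy values over plasmid are not decreases. In the LGR library it had 2.07 and 1.84 CPM at T0, against 8.96 CPM in plasmid. The LGR plasmid and cell samples were sequenced on different machines, so this difference cannot be told apart from one between the machines.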
